A study of Mus musculus with 5 samples.

Results

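Genes of the exocrine pancreas acinar cell were followed in liver RNA of 5 inbred mouse strains, 1 Affymetrix Mouse430_2 array per strain. The list held 32 genes, chosen by name with earlier results of these data known. Of these genes, 28 had a probe set annotated to that gene alone, out of 18202 genes on the array. The strains were RIIIS/J, NZW/LacJ, FVB/NJ, C57BL/6J and BALB/CByJ, and the RNA of each array was a pool from 3 untreated males aged 10 weeks. The series compared these livers to follow up expression loci that differ among strains. The labels give no genetic alteration or treatment for any group, and a pool of animals on a single array gives no spread between animals. There was no replicate and no test is given. Differences are described by their size, beside the share of all genes that reached the same size, and the number of arrays limits their precision.

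Acinar cells make and store the digestive enzymes of the pancreas. They secrete proteases as inactive zymogens (trypsinogens, chymotrypsinogens, proelastases and procarboxypeptidases), together with lipases, colipase, amylase and ribonuclease, from zymogen granules. Their transcription is driven by the PTF1 complex, in which the basic helix-loop-helix protein PTF1A, encoded by Ptf1a, pairs with an E protein and with RBPJL, while BHLHA15 (Mist1) maintains secretory architecture. Hepatocytes secrete plasma proteins, among them the zymogens of clotting and complement, and are not known as a source of the pancreatic digestive zymogens, although liver and pancreas arise from neighbouring endoderm.

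The upstream sequences of 8 acinar genes that were high on the same array are shown with and without the letters of interest, because the binding sequence of the PTF1 complex is described as an E-box beside a TC-box. Each is the 250 bases before the transcription start annotated by RefSeq on GRCm38.p6, the reference genome of C57BL/6J, written 5′ to 3′ on the strand of the gene. Capitals mark exact matches on either strand to 3 short motifs. The E-box was searched as CACCTG. The TC-box was searched with the letters TTTCCC, and the TATA box of the core promoter was searched as TATAAA. The arrays measured none of this sequence, and the strains may differ from the reference.

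Prss2 (chr6:41521526-41521775, plus strand): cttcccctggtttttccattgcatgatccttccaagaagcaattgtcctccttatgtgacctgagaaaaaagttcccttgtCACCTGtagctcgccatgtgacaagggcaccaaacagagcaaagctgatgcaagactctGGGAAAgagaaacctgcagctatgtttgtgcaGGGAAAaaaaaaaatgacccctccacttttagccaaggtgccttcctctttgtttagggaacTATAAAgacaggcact

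Cela2a (chr4:141826006-141826255, minus strand): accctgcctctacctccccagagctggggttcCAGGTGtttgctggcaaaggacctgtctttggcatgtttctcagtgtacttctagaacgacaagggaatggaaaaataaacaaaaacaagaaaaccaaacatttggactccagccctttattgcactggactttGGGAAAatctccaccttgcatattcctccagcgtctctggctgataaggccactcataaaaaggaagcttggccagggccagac

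Ctrb1 (chr8:111691011-111691260, minus strand): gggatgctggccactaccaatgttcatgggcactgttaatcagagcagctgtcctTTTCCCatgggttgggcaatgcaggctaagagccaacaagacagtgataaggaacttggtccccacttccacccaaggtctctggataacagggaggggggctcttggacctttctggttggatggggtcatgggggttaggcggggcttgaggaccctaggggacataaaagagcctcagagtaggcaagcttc

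Cpa1 (chr6:30638968-30639217, plus strand): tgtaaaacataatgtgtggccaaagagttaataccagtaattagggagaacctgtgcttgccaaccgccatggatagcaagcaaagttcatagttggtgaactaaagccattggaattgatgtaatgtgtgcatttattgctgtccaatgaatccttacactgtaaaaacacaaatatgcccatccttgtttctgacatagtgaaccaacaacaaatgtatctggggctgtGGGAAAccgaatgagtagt

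Cel (chr2:28563404-28563653, minus strand): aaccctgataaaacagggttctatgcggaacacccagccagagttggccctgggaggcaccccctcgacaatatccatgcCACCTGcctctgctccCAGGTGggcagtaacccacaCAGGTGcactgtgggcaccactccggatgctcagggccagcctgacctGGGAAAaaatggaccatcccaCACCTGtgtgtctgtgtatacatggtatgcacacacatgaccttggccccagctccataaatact

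Cela1 (chr15:100687921-100688170, minus strand): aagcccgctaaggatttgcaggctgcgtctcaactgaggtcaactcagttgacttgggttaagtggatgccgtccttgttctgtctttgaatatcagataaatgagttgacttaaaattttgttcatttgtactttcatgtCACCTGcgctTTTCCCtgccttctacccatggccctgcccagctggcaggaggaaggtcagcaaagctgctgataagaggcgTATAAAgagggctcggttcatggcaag

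Cpb1 (chr3:20275734-20275983, minus strand): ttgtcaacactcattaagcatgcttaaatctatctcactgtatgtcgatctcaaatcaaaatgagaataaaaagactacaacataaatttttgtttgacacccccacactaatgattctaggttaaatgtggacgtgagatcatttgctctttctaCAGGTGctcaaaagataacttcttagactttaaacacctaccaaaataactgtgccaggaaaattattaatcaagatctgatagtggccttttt

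Ctrl (chr8:105933863-105934112, minus strand): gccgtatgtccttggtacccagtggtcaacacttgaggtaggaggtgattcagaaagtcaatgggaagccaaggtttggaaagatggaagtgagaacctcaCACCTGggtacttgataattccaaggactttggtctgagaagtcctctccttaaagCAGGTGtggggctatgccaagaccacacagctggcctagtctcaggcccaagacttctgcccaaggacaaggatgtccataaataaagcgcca

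The windows shown were picked with their motif matches known and are not a representative sample. Among them, Prss2, Cela2a, Cel and Cela1 held both the E-box and the TC-box letters, while Ctrb1 and Cpa1 held the TC-box letters without that E-box, and Cpb1 and Ctrl held the E-box without the TC-box letters. They include all 4 windows with both among the acinar genes that were at least 2-fold higher in RIIIS/J, described next. Cel held 4 matches to the E-box. In Cela1 the matches lay side by side, at -109 to -104 and at -99 to -94 from the start, and in Prss2 and Cela1 a TATA match lay closer to the start. RefSeq windows were present for 24 of the 28 genes. The E-box letters were in 15 of the 24, against 17.2% of all 32851 annotated windows of this length, the TC-box letters in 8 of 24, against 21.9%, and the TATA letters in 7 of 24, against 12.4%. Both the E-box and the TC-box were in 5 of 24 windows, against 3.61% of all windows. Split by whether the gene was at least 2-fold higher in RIIIS/J, the E-box was in 9 of 17 windows of such genes and 6 of the 7 others, the TC-box letters in 7 of 17 and 1 of 7, and both in 4 of 17 and 1 of 7. The TATA letters were in 5 of 17 and 2 of 7. These splits go different ways for the E-box and the TC-box and were not tested. A match is a description of letters and does not show that a factor binds there.

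**Figure D1:**
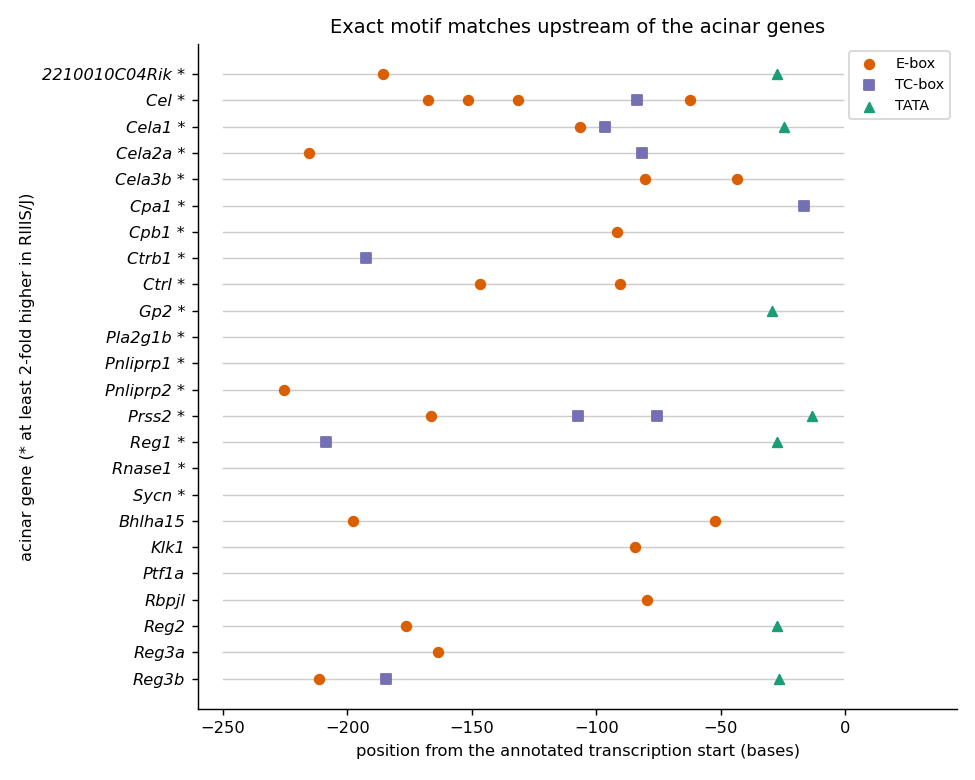
Positions of exact matches to the E-box, TC-box and TATA letters in the 250 bases upstream of 24 acinar genes, in bases from the annotated start; each grey line is a window and an asterisk marks genes at least 2-fold higher in RIIIS/J. E-box matches appear in 15 of the 24 windows, among genes with and without the asterisk.

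Acinar enzyme genes were far higher on the RIIIS/J array than on any other. By the rule that a gene stands apart when it is at least 2-fold above the nearest of the other 4 strains, 20 of the 28 acinar genes were apart on the high side in RIIIS/J, against 0.632% of all genes (115 of 18202). A detection floor was set at 8.41, which 95% of the pooled values of 86 probe sets of sensory (smell, pheromone and taste) receptor genes stay under. Values below the floor were raised to it first, so a fold against such values is a lower bound and is written "at least". Of the 20 genes, 13 were under the floor in all the other strains and 7 were measured in at least 1 of them. Each of the 20 was also more than 4-fold apart, and 15 were at least 100-fold apart. Among the 20 genes of the whole array with the largest gap in RIIIS/J, 18 were acinar genes of this list, and the remaining 2 were further acinar genes named below. These lists were chosen with earlier results of these data known, so the counts are a description and not independent support. These levels are of whole tissue, in which more cells of a type and more RNA per cell cannot be told apart.

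In the other strains 0 of the 28 genes stood apart in either direction. Over all genes the high side held 0.324% in C57BL/6J, 0.522% in BALB/CByJ, 3.79% in FVB/NJ and 0.5% in NZW/LacJ. The low side held 0.275%, 0.286%, 0.352% and 0.472% in the same order, and 1.13% in RIIIS/J, where again 0 of the 28 genes were called. The median over the 28 genes of the log2 difference between a strain and the mean of the other 4 was 6.80 in RIIIS/J, -1.59 in NZW/LacJ and -1.70 in each of the others. For all genes this median was 0 in every strain. The negative medians rest on RIIIS/J being among the strains averaged: without that array the median was 0 in each of the other 4.

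**Figure D2:**
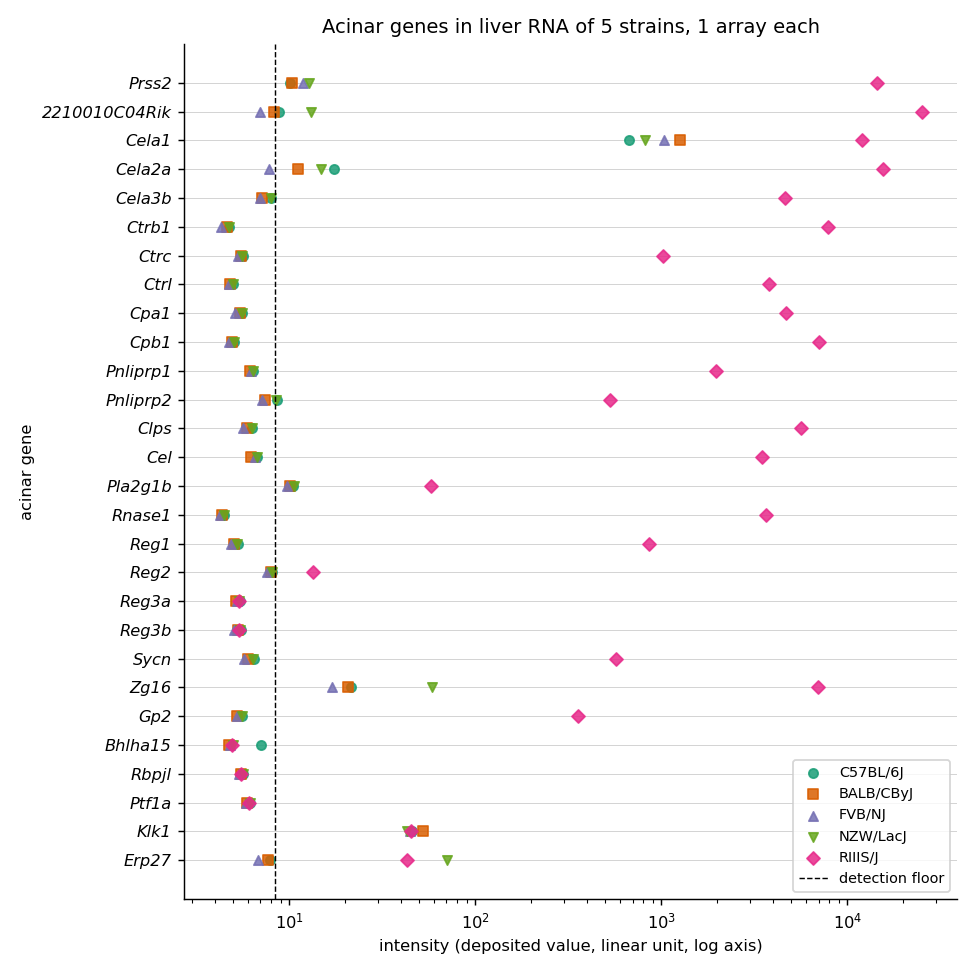
Deposited intensity (log axis) of the 28 acinar genes, 1 row per gene and 1 symbol per strain, with 1 array each; the dashed line is the detection floor of 8.41. The RIIIS/J symbols of 20 genes lie far to the right of the other 4 strains, whose symbols mostly lie at or under the floor.

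Trypsinogens, the zymogens of trypsin, were represented by 2 genes. Prss2, anionic trypsinogen, read 10.1 in C57BL/6J, 10.4 in BALB/CByJ, 11.9 in FVB/NJ, 12.8 in NZW/LacJ and 14379.7 in RIIIS/J. The first 4 arrays thus lay just above the floor and RIIIS/J stood 1119.8-fold above the nearest. 2210010C04Rik, another trypsinogen gene, read 8.84, 8.28, 7.01 and 13.1 in the same order and 25246 in RIIIS/J, 1922-fold above NZW/LacJ. All 4 probe sets of Prss2 carry a suffix (_a_at or _x_at) by which the manufacturer marks probes that can match several transcripts, and trypsinogen genes are near-identical copies, so which trypsinogen gave the signal is uncertain. For 2210010C04Rik a probe set without such a suffix read 5340.2 in RIIIS/J and 4.13 to 4.34 elsewhere. Try4, Try5, Try10 and Pnlip, the gene of pancreatic triglyceride lipase, had no probe set annotated to them alone and were not analysed here. A probe set with 2 gene symbols, which names no single gene, read 7410 in RIIIS/J and 7.01 to 7.70 in the other strains.

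Elastases and chymotrypsins were also highest in RIIIS/J. Most of their values in the other strains were under the floor, where order carries no meaning. Cela1, pancreatic elastase 1, was the exception among the enzymes in being well above the floor everywhere, at 667 in C57BL/6J, 1256 in BALB/CByJ, 1037 in FVB/NJ and 815 in NZW/LacJ, against 12031 in RIIIS/J. Its gap of 9.58-fold in RIIIS/J was measured on both sides. Among the other 4 strains its highest and lowest values were less than 2-fold apart. Cela2a read 17.5, 11.1, 7.75 and 14.9 in those 4 strains and 15433 in RIIIS/J, 883-fold above C57BL/6J. C57BL/6J and FVB/NJ were at least 2-fold apart in Cela2a, at levels close to the floor. Cela3b was under the floor in the other strains, at 6.94 to 7.98, and read 4589.6 in RIIIS/J, at least 546-fold higher. Its probe sets may also match a close elastase paralog.

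Chymotrypsinogen genes were under the floor in every strain but RIIIS/J. Ctrb1, chymotrypsinogen B1, read 4.31 to 4.74 in the other strains and 7824 in RIIIS/J, at least 930.0-fold higher. Ctrl, chymotrypsin-like, read 4.76 to 4.999 and 3777, at least 449-fold higher. Ctrc, chymotrypsin C, which degrades trypsinogen and activates procarboxypeptidases, read 5.32 to 5.66 and 1026.5, at least 122-fold higher. The RefSeq table lists Ctrc as a transcribed pseudogene in the C57BL/6J reference and the array placed all strains but RIIIS/J under the floor. The carboxypeptidases, which trim residues from the carboxyl end of peptides, were alike in this respect. Cpa1 read 5.14 to 5.59 in the other strains and 4650.2 in RIIIS/J, at least 553-fold higher. Cpb1 read 4.78 to 5.08 and 7062, at least 839.5-fold higher.

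Lipid-digesting enzymes covered a wider range. Clps, colipase, the cofactor that anchors pancreatic lipase to fat droplets, read 5.64 to 6.32 in the other strains and 5637 in RIIIS/J, at least 670.1-fold higher. Cel, bile salt-stimulated lipase, read 6.24 to 6.68 and 3483, at least 414-fold higher. The lipase-related genes Pnliprp1 and Pnliprp2 both lie on chromosome 19 and both stood apart. Pnliprp1 read 6.17 to 6.40 in the other strains and 1966 in RIIIS/J, at least 234-fold higher. Pnliprp2 read 8.59 in C57BL/6J, 7.37 in BALB/CByJ, 7.18 in FVB/NJ, 8.46 in NZW/LacJ and 531 in RIIIS/J, 61.9-fold above C57BL/6J. Pla2g1b, pancreatic phospholipase A2, had the smallest gap among the 20, at 9.73 to 10.6 in the other strains and 57.9 in RIIIS/J, 5.44-fold. Its 4 probe sets disagreed: another read 354 in RIIIS/J and 5.03 to 5.38 elsewhere, while the remaining 2 were under the floor on all arrays. Rnase1, pancreatic ribonuclease, read 4.23 to 4.48 in the other strains and 3629.9 in RIIIS/J, at least 431-fold higher.

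Genes of the zymogen granule were high in RIIIS/J too. Zg16, a lectin of the zymogen granule membrane, read 21.4 in C57BL/6J, 20.7 in BALB/CByJ, 16.9 in FVB/NJ, 58.4 in NZW/LacJ and 6974 in RIIIS/J, 119-fold above NZW/LacJ. Its level in NZW/LacJ was more than 2-fold above the other 3 strains on this probe set, but not on its other probe sets, where NZW/LacJ read 16.1 (C57BL/6J 16.1) and under the floor. Sycn, syncollin, a granule protein, read 5.69 to 6.48 outside RIIIS/J and 572 in it, at least 67.9-fold higher. Gp2, the major glycoprotein of granule membranes, read 5.25 to 5.60 and 355, at least 42.2-fold higher.

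The Reg genes, which encode secreted lectin-like proteins of the pancreas and gut, did not share a pattern. Reg1 read 4.89 to 5.32 in the other strains and 855 in RIIIS/J, at least 102-fold higher. Reg2 was above the floor on the RIIIS/J array only, at 13.5 against 7.60 to 8.04, which was at least 1.60-fold and short of the 2-fold rule. Reg3a (5.20 to 5.47) and Reg3b (5.04 to 5.48), known as genes induced by pancreatic injury and inflammation, were under the floor on all 5 arrays. All 4 lie on chromosome 6 in the RefSeq table, as do the trypsinogens, so members of the same chromosome differed in their pattern.

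The transcription factors that define the acinar cell were under the floor on all 5 arrays, RIIIS/J included. Ptf1a read 5.84 to 6.18, Rbpjl read 5.39 to 5.63, and Bhlha15 read 4.78 to 7.10. With the 2 Reg3 genes, these made up the 5 genes that were under the floor everywhere. The array gives no more than an upper bound for these genes, and their probes were not checked against a tissue that expresses them.

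Klk1 and Erp27 did not follow the enzymes by the rule. Klk1, tissue kallikrein, read 43.0 to 52.3 on its probe set with the highest mean, with RIIIS/J at 45.01. Its other 3 probe sets were all higher in RIIIS/J. They read 189 there against 7.63 to 8.33 in the other strains, 252 against 6.98 to 10.2, and 44.0 against 9.59 to 10.2. Kallikrein genes form a family of close copies, so the gene behind each signal is uncertain. Erp27, an endoplasmic reticulum protein gene, was highest in NZW/LacJ at 70.9, followed by RIIIS/J at 42.8, and read 7.86, 7.65 and 6.80 in C57BL/6J, BALB/CByJ and FVB/NJ. Both raised arrays were thus at least 4-fold above the other 3, and NZW/LacJ and RIIIS/J were less than 2-fold apart. A further probe set of Erp27 was under the floor on all arrays.

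**Figure D3:**
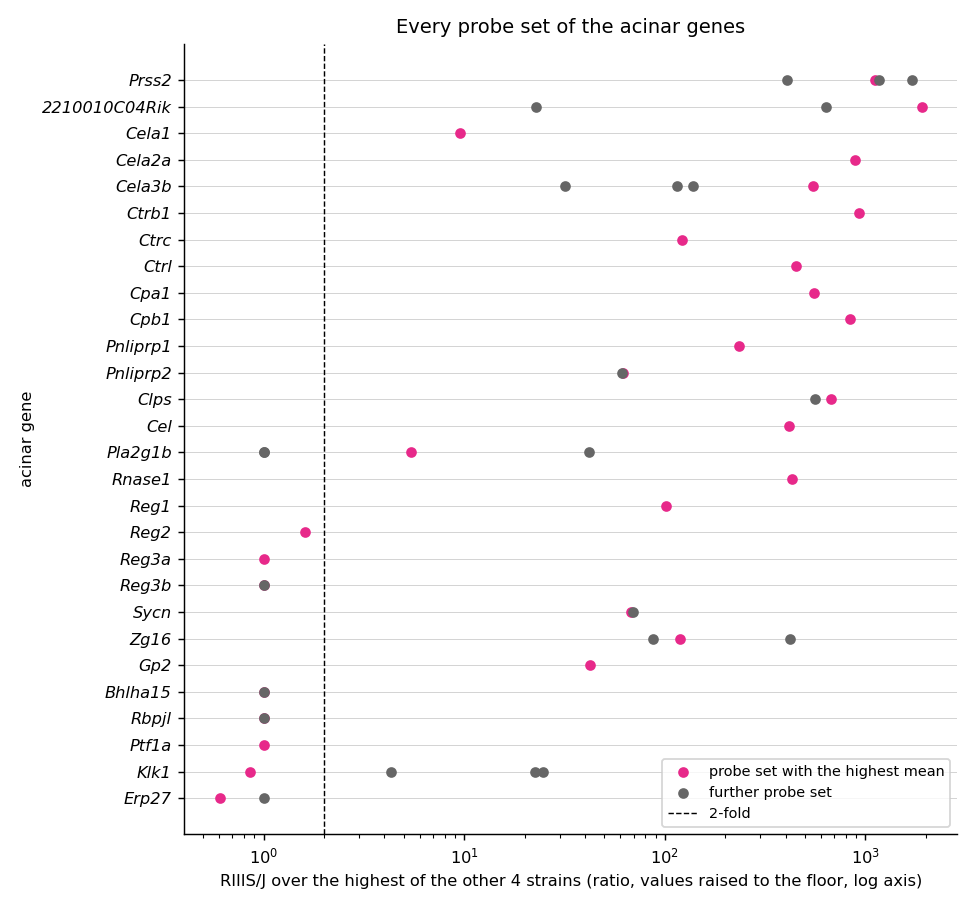
Ratio of RIIIS/J to the highest of the other 4 strains for all 51 probe sets of the 28 acinar genes (log axis, values raised to the floor); pink marks the probe set with the highest mean and grey the others. Of the 51 probe sets, 37 lie beyond the dashed 2-fold line, and Klk1 and Pla2g1b have probe sets on both sides of it. The share of all genes, with 1 probe set each, was 0.632%.

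Further probe sets of a gene were read within the same RNA. Of 23 such probe sets, 17 were at least 2-fold higher in RIIIS/J. The share of all genes, with 1 probe set each, was 0.632%, and the share of all probe sets was not computed. Several of the 23 end in _x_at, _a_at or _s_at and may read transcripts of close copies, so they are not independent. Among 13 genes with several probe sets, 7 had all of them apart, 4 had none, and Klk1 and Pla2g1b were split. The 7 were Prss2, 2210010C04Rik, Cela3b, Clps, Pnliprp2, Sycn and Zg16. The size of the ratio differed among probe sets of a gene, as in 2210010C04Rik, where RIIIS/J read from 191 to 25246.

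Compared in pairs, RIIIS/J differed at least 2-fold from C57BL/6J, BALB/CByJ and FVB/NJ in 21 of the 28 genes each, and from NZW/LacJ in 20. Over all genes these pairs were apart in 5.92%, 6.97%, 10.8% and 4.73%. These comparisons share the RIIIS/J array. NZW/LacJ differed from C57BL/6J, BALB/CByJ and FVB/NJ in the same 2 genes, Zg16 and Erp27, against 4.71%, 5.41% and 9.42% of all genes. C57BL/6J and FVB/NJ differed in 1, Cela2a (7.04% of all genes). For C57BL/6J with BALB/CByJ (3.18%) and BALB/CByJ with FVB/NJ (7.21%) the number was 0. The summed intensity of the 28 genes was 120209 in RIIIS/J and 911 to 1490 in the other strains, or 0.938% of the sum over all genes on that array and 0.00722% to 0.0117% on the others. Much of the sum outside RIIIS/J is Cela1.

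**Figure D4:**
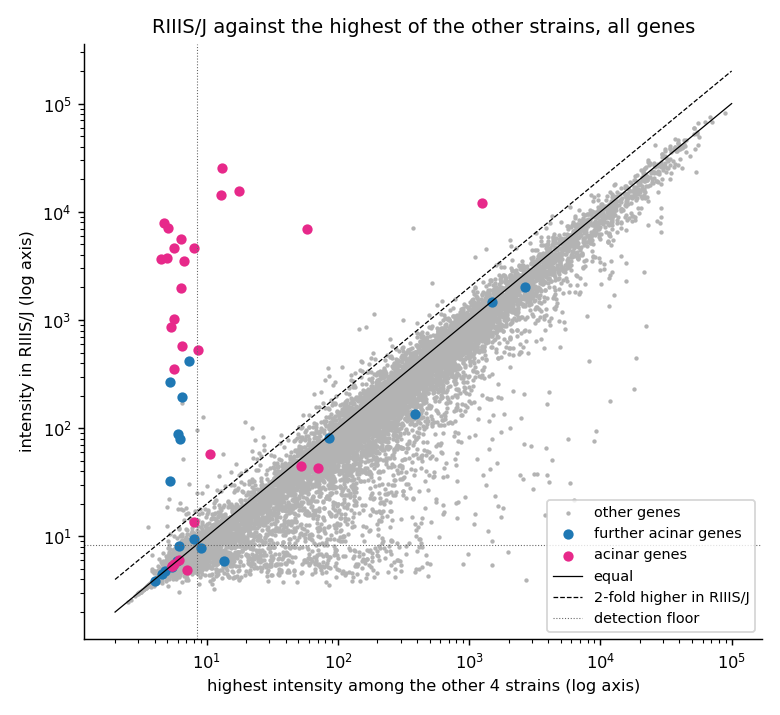
Intensity of every gene in RIIIS/J against its highest intensity among the other 4 strains (both log axes); pink marks the 28 acinar genes, blue 19 further acinar genes and grey all others. The 13 pink points under the floor in the other strains and called in RIIIS/J lie between 355 and 7824 there.

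Acinar genes outside the list followed in part. Of 19 further acinar genes on the array, 6 were apart on the high side in RIIIS/J, against the same 0.632% of all genes, and 0 on the low side. Cuzd1, a zymogen granule membrane protein gene, read 6.85 to 7.31 in the other strains and 417 in RIIIS/J, at least 49.6-fold higher. Dmbt1, a secreted scavenger receptor gene, read 5.02 to 5.24 and 266, at least 31.6-fold higher. Spink1, the pancreatic secretory trypsin inhibitor, read 5.65 to 6.49 and 194, at least 23.1-fold higher. Prss3 read 5.60 to 6.07 and 88.1, at least 10.5-fold higher, and its sequence is close to those of the trypsinogens above. Pdia2, a pancreatic protein disulfide isomerase gene, and Tmed6 completed the 6. Genes of this list that liver also expresses were not apart in RIIIS/J: Nr5a2, a nuclear receptor gene, read 588 to 1485 and Gata4 read 53.2 to 84.9 over the 5 arrays. Fkbp11 and Aqp8 were also above the floor on all 5 arrays and were highest in NZW/LacJ. Fkbp11 read 385 in NZW/LacJ, apart on the high side, and 61.8 in FVB/NJ, apart on the low side, with RIIIS/J at 136. Aqp8 read 2682 in NZW/LacJ and 1998 in RIIIS/J. Other genes of this list gave little or no signal. Serpini2, Cckar, Dnase1, Slc38a5, Reg3g and Reg3d were under the floor on all 5 arrays. Tmed11 was above it on the RIIIS/J array only, at 9.41, and Aqp12 and Reg4 on the C57BL/6J array only. The median of the further acinar genes in RIIIS/J was 0.16, against 0 for all genes.

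Markers of other tissues next to the liver were read on the same arrays. None of 18 islet genes was apart in RIIIS/J, and their summed level was 110 there and 99.02 to 115 in the other strains. The hormone genes Ins2 (4.41 to 4.47), Gcg (5.07 to 5.52), Sst (4.87 to 5.05) and Ppy (4.01 to 4.22) were under the floor on all arrays. Iapp and Abcc8 were the only islet genes above it on any array. Iapp was above it in RIIIS/J only, at 12.8 against 6.73 to 8.27, at least 1.52-fold and short of the 2-fold rule. Abcc8 was above it on every array, at 8.90 to 17.9, with RIIIS/J at 10.6. None of 9 duct epithelium genes was apart, with a summed level of 7815 in RIIIS/J and 6191 to 8607 elsewhere. Krt18 (3769 to 5781) and Krt8 (2358 to 3267), keratins that hepatocytes share, made up nearly all of that sum. Of 20 stomach and intestine genes 1 was apart on the high side in RIIIS/J, against 0.632% of all genes. This was Tff2, a trefoil factor gene, which read 6.19 to 6.45 in the other strains and 172 in RIIIS/J, at least 20.5-fold higher. Tff3 was apart on the high side in C57BL/6J, at 26.8, and read 8.63 in RIIIS/J. The sum of that list was 1723 in RIIIS/J and 818 to 1357 in the others. Most of it was Fabp2, at 1447 in RIIIS/J and 707 to 1226 in the others, which was not apart. Of the 20 genes, 4 were above the floor on any array.

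Fat, salivary and B cell markers held 0 genes apart on the high side in RIIIS/J. The 9 fat genes summed to 55261 in RIIIS/J and 50111 to 54673 in the others, nearly all from Car3, which liver expresses. Fabp4, a fatty acid binding protein gene of fat cells, read 228 to 269.7 with RIIIS/J the lowest, and Adipoq was under the floor in RIIIS/J at 4.46. The 8 salivary genes had 0 apart, and Amy1, the amylase gene of salivary gland and liver, read 5054 to 11347 with RIIIS/J the highest by less than 2-fold. Prol1, a gene of salivary and tear glands, stayed close to the floor at 8.18 to 9.90. Of 11 B cell genes, 0 were higher and 2 lower in RIIIS/J, namely Cd74 (93.7) and H2-Ab1 (50.6). Their summed level was 396 in RIIIS/J, 552 to 31602 in the other strains, and highest in FVB/NJ, the array on which 10 of the 11 were apart. Acinar genes above the floor numbered 5 of the 28 in FVB/NJ, 6 in BALB/CByJ, 8 in C57BL/6J, 9 in NZW/LacJ and 23 in RIIIS/J. Over all 18202 genes the numbers were 11035, 10816, 11163, 11122 and 11074 in the same order. Outside RIIIS/J several acinar values lay close to the floor, where order carries no meaning.

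Hepatocyte genes stood close together on the arrays, although RIIIS/J was the highest in 8 of the 10. All 10 hepatocyte genes were detected on each, with 0 apart, and Alb, the albumin gene, read 63746 to 74714 and Apoa1 read 63888 to 70898. The hepatocyte genes summed to 404195 in RIIIS/J and 346198 to 374016 in the others. The 20 genes of endoplasmic reticulum folding and export, which acinar cells use heavily, had 0 apart in RIIIS/J and a median of 0.09. The median in NZW/LacJ was larger, at 0.28, and that array was the highest in 10 of the 20 genes, against 5 for RIIIS/J. Hspa5, the chaperone BiP, read 28211 in RIIIS/J and 13774 to 23777 in the others. Calr, the chaperone calreticulin, read 14365 in RIIIS/J, inside the range of 11953 to 15888 of the others. As a sign of RNA quality, the ratio of 3' to 5' actin probe sets was 2.76 in RIIIS/J and 3.73 to 4.98 elsewhere, and that of Gapdh was 0.901 and 0.9504 to 1.01. Genes above the floor numbered 10816 to 11163 per array. The part of tissue collection, RNA quality or array in the RIIIS/J values was not tested, and strain and array cannot be told apart.

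**Figure D5:**
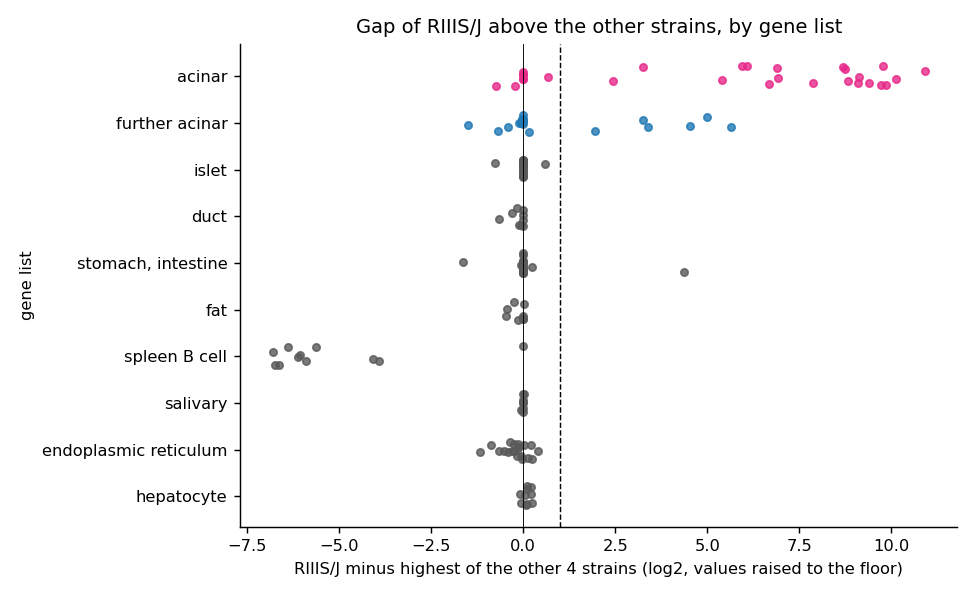
Gap of RIIIS/J above the highest of the other 4 strains (log2, values raised to the floor) for every gene of 10 lists; each point is a gene, vertical scatter is only for visibility, and the dashed line is 2-fold. Acinar genes (20 of 28), further acinar genes (6 of 19) and 1 stomach and intestine gene lie beyond the line, and B cell genes lie to the left because FVB/NJ is high.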

How the data were processed

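Liver RNA of 5 strains was measured on 1 array each. The authors deposited 1 intensity per probe set and array, not on a log scale. The submitters' processing notes name GCOS and GCRMA, with no version or setting given in the sources used here. GCRMA models nonspecific binding from probe sequence, so low values crowd together and their order carries no meaning.

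Of 45101 probe sets, 34970 had 1 gene in the platform annotation, 920 had several and 9211 had none. Those with 1 gene gave 18202 genes, and 34754 of these probe sets took their symbol from RefSeq (GRCm38.p6). Intensities were converted to log2, each gene took its probe set with the highest mean, and lower values were set to the floor. A gene was called apart at 2-fold from the nearest other strain. No test was possible with 1 array per strain. The acinar genes, the comparison lists and the naming rule were chosen with earlier results of these data known. Acinar genes above the floor on any array were named with their values, given as a range where strains were under the floor. Of each comparison list, the called genes with the largest gaps (at most 4) were named, or else the 2 with the highest mean. Pdia2, Tmed6, Nr5a2, Gata4, Adipoq and the islet hormone genes were named outside this rule. So were Serpini2, Cckar, Dnase1, Slc38a5, Reg3g, Reg3d, Tmed11, Aqp12, Reg4, Fkbp11, Aqp8, Fabp2, Tff3, Xbp1, Pdia3 and Creb3l2.

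Motifs were searched as exact letters on both strands. The calling step was run on simulated data made from a real array with small added noise. Shifts were planted only in genes well above the floor. Calls against values under the floor, and the real spread between arrays, were thus not covered. Python 3.11.15, numpy 2.4.6, pandas 2.3.3 and matplotlib 3.10.9 were used.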

Additional observations from a re-analysis of the deposited data

How the results depend on the processing

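No paired analysis was possible because no group had a second array to pair. The count of acinar genes apart in RIIIS/J was 16 to 21 under every alternative run, with 16 of the 23 genes that remain when probe sets ending in _s_at, _x_at or _a_at are left out: 5 called genes (Prss2, Cela2a, Ctrl, Sycn and Gp2) then have no probe set, the other 15 were still called and Klk1 was gained, and the counts on the low side stayed at 0. Without 1 array at a time, the high side in NZW/LacJ held 0 to 2 genes, with 2 when RIIIS/J was left out. Medians moved with the floor. With the floor at the 99th percentile of receptor probe set values (27.4) they were 5.10 in RIIIS/J, -1.40 in C57BL/6J, -1.27 in BALB/CByJ, -1.27 in FVB/NJ and -1.19 in NZW/LacJ. With a pseudocount of 16 and no floor they were 5.48, -1.44, -1.39, -1.40 and -1.35. With no floor they were 7.46 in RIIIS/J and -1.94 in FVB/NJ, and without probe sets ending in _s_at, _x_at or _a_at the RIIIS/J median was 5.93. Without 1 array at a time they ranged from -2.27 to 0 in C57BL/6J, BALB/CByJ and FVB/NJ and from -2.13 to 0 in NZW/LacJ, the 0 being without RIIIS/J. Each pair of NZW/LacJ with C57BL/6J, BALB/CByJ or FVB/NJ fell from 2 genes to 1 at 4-fold, with the mean of all probe sets and without the suffixed probe sets, and the pair with C57BL/6J also with the pseudocount. C57BL/6J and FVB/NJ fell from 1 gene to 0 at 4-fold, at the higher floor, with the pseudocount and without the suffixed probe sets. Klk1 was apart in RIIIS/J with the mean of its probe sets (2.87 log2) and without suffixed ones (4.49). The causes were not tested. Depth is not defined for arrays: signal under the floor gives only a bound.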

Other observations

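Of the 115 genes apart on the high side in RIIIS/J, 20 were acinar genes of the list and 6 were further acinar genes. The genes below were picked after their values were seen, as the 5 largest gaps outside all lists. Cyp2c38, a cytochrome P450 gene, read 118 to 376 in the other strains and 7063 in RIIIS/J, 18.8-fold above the nearest. Clic5, an intracellular chloride channel gene, read 5.57 to 9.39 and 127, and Nckap5 read 8.24 to 8.47 and 95.6. Klk1b5, a kallikrein of the same family as Klk1, was under the floor in the other strains (5.60 to 6.62) and read 52.0 in RIIIS/J, at least 6.18-fold higher. Ndrg1 read 60.6 to 188 and 1145.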
